A study of Mus musculus with 2 samples.

Results

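The MHC class II presentation genes were followed in single monocytes, macrophages and dendritic cells from mouse skin wounds. The 10 genes were chosen by symbol: H2-Aa, H2-Ab1, H2-Eb1, Cd74, H2-DMa, H2-DMb1, H2-DMb2, H2-Oa, Ciita and Ctss. All 10 were found among the 31053 features of the count matrices, and all 10 had at least 1 unique molecular identifier (UMI) in each library. Cells entered with at least 500 detected genes and under 10% mitochondrial UMIs.

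The study, by its title, addresses the heterogeneity of these cells in wounds of diabetic and control mice. One library was made from wound cells of diabetic mice on day 6 after injury, and the other from wound cells of non-diabetic mice on the same day. Each library pooled cells from 2 mice after enzymatic digestion of the wounds. The labels speak of mice per strain and name no strain, diabetes model, sex or age, so strain and diabetes cannot be told apart throughout. With 1 library per condition there is no replicate check, and no difference was tested. The diabetic library held 2214 barcodes and 31730014 UMIs, and 1751 cells were kept, with a median of 16297 UMIs. The non-diabetic library held 2026 barcodes and 17559986 UMIs, and 1121 cells were kept, with a median of 14067 UMIs. The libraries shared 6 barcodes, of which 1 was kept in both. Every interval is a 95% interval of counting error alone and leaves out variation between cells, mice and libraries.

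MHC class II molecules display peptides from endocytosed proteins to CD4+ T cells. H2-Aa and H2-Ab1 encode the alpha and beta chains of the I-A molecule, H2-Eb1 the beta chain of I-E, and Cd74 the invariant chain that guards the peptide groove until the endosome is reached. Cathepsin S, encoded by Ctss, trims the invariant chain, H2-DM exchanges its last fragment for antigenic peptides, and H2-O restrains H2-DM. Ciita encodes the coactivator that switches these genes on through factors bound at the X and Y boxes of their promoters. Dendritic cells carry much class II, whereas monocytes carry little and macrophages acquire it on activation.

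The 7 H2 members lie in 1 stretch of chromosome 17, from H2-Oa at chr17:34092340-34095234 to H2-Eb1 at chr17:34305867-34316674 (GRCm38, GENCODE M21). Ciita lies at chr16:10480059-10528418 and Ctss at chr3:95526786-95556403 of the same build. RefSeq promoter windows (GRCm38.p6) were matched for 7 of the 10 members, and the 250 bases before the start are printed here for 6 of them. They are printed as a description, and no link between these letters and the levels of the members was tested. The start is that of the RefSeq window, which lies inside the GENCODE gene for H2-Oa, H2-DMb1 and H2-DMb2. The H2-Oa and H2-DMb1 stretches therefore overlap the GENCODE gene (H2-DMb1 at chr17:34153072-34160230). The H2-DMb2 stretch lies wholly within it (chr17:34143307-34151555). Capitals mark the Y box, searched as TGATTGG, and the X box core, searched as AACNGATG, each on both strands.
H2-Eb1, chr17:34305617-34305866, plus strand: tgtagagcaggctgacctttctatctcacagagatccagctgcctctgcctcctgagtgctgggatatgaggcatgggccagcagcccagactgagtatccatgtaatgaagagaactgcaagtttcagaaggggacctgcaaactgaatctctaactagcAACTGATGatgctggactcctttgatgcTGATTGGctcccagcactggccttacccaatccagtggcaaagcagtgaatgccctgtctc
H2-DMb1, chr17:34152941-34153190, plus strand: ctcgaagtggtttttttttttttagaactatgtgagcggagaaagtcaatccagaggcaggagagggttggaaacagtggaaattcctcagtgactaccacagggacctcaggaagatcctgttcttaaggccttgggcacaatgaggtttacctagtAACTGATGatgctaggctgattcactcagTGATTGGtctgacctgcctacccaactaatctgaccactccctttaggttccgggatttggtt
H2-DMb2, chr17:34144999-34145248, plus strand: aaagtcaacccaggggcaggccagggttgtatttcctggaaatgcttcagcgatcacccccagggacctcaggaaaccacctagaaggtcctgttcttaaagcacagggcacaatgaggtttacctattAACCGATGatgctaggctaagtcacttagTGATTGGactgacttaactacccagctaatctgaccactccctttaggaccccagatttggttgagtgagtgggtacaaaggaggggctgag
H2-Aa, chr17:34287824-34288073, minus strand: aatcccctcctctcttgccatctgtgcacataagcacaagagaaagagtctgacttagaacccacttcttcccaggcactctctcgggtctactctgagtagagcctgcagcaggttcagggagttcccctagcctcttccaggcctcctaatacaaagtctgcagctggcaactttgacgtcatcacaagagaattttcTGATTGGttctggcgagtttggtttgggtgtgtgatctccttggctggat
H2-Oa, chr17:34092129-34092378, plus strand: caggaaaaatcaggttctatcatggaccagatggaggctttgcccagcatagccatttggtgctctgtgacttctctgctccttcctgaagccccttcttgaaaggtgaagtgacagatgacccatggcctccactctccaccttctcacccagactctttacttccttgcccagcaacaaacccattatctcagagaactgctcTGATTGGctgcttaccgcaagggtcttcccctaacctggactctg
Ctss, chr3:95526536-95526785, plus strand: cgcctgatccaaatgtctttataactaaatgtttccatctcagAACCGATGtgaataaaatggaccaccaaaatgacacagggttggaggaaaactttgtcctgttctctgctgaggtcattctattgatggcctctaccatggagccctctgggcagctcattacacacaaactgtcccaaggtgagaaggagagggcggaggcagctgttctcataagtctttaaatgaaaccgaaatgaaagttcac

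A Y box was found in 5 of the 7 members with a window, H2-Eb1, H2-DMb1, H2-DMb2, H2-Aa and H2-Oa. The X box core was found in 4, H2-Eb1, H2-DMb1, H2-DMb2 and Ctss. In H2-Eb1 the Y box began 20 bases after the end of the X box core, and in H2-DMb1 and H2-DMb2 21 bases after it. In Ctss the X box core began 207 bases before the start and no Y box was found. The 2 windows of H2-DMa held neither run of letters. Of all 32851 promoter windows, 7.23% held the Y box, 1.98% the X box core and 0.146% both. The motifs were settled with the sequences in view, and a match describes letters, not binding. H2-DMb1 and H2-DMb2 transcripts shared a stretch of 98% identity over 200 bases, so the split of reads between these 2 genes is uncertain. No other member had a stretch of at least 95% identity over 200 bases with another gene.

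Cells were clustered without the 10 members and without H2-Ob and H2-Eb2, so class II did not define the cell classes. A dendritic cell-like cluster, led by Klrd1, Cd7 and Cd209a, held 11 of 14 conventional dendritic cell markers. It comprised 59 of the 1751 diabetic cells (3.37%, 2.57 to 4.33%) and 119 of the 1121 non-diabetic cells (10.6%, 8.87 to 12.6%). Of the markers of cross-presenting dendritic cells, Xcr1 was at 0 there in both libraries, and Clec9a had 0 UMIs in diabetic and 4 UMIs in non-diabetic cells. A macrophage-like cluster led by Ccl8, Marco and Cd163 held 11 of 12 macrophage markers, with 212 diabetic and 26 non-diabetic cells. The Ifit2-led cluster and 1 other were monocyte-like, with 170 diabetic and 336 non-diabetic cells together. The remaining clusters but a neutrophil-like and a low-depth one could not be named, and many came almost wholly from 1 library. All of these except the dendritic cell-like, neutrophil-like and low-depth cells form the monocyte/macrophage set, with 1672 diabetic and 963 non-diabetic cells.

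In dendritic cell-like cells the class II genes differed little between the libraries, and only H2-Aa and H2-DMb2 of the 10 members were more than 1.5 times higher in the diabetic library. H2-Aa made up 16941 UMIs per 1000000 summed UMIs (CPM) in the diabetic library, against 10851 CPM in the non-diabetic one, a ratio of 1.56 (1.53 to 1.59). H2-Ab1, which encodes its partner chain, stood at 12435 CPM in diabetic and 10773 CPM in non-diabetic cells, a ratio of 1.15 (1.13 to 1.18). H2-Eb1 stood at 11393 CPM in diabetic and 10493 CPM in non-diabetic cells. Cd74, the invariant chain, stood at 32145 CPM in diabetic and 29488 CPM in non-diabetic cells, and the ratio was 1.09 for each of H2-Eb1 and Cd74. The sum of H2-Aa, H2-Ab1, H2-Eb1 and Cd74, called the class II sum from here on, reached 72915 CPM in diabetic and 61606 CPM in non-diabetic cells (ratio 1.18, 1.17 to 1.19). At 1.18 the class II sum did not pass the 1.5-fold mark.

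The peptide exchange genes did not move as a block in dendritic cell-like cells. H2-DMa, the alpha chain of H2-DM, stood at 974 CPM in diabetic and 948 CPM in non-diabetic cells (ratio 1.03, 0.953 to 1.11). Of the beta chain genes, H2-DMb1 stood at 1328 CPM in diabetic and 1131 CPM in non-diabetic cells (ratio 1.17), and H2-DMb2 at 424 CPM in diabetic and 193 CPM in non-diabetic cells. The H2-DMb2 ratio was 2.20 (1.93 to 2.52), and H2-DMb2 had a UMI in 89.8% of diabetic and 61.3% of non-diabetic dendritic cell-like cells. H2-Oa, the alpha chain of the H2-DM inhibitor, was lower, at 85.1 CPM in diabetic and 117 CPM in non-diabetic cells (ratio 0.725, 0.564 to 0.924). H2-Oa stayed short of the 1.5-fold mark. Ciita stood at 277 CPM in diabetic and 229 CPM in non-diabetic cells (ratio 1.21, 1.05 to 1.40), and Ctss at 1457 CPM in diabetic and 1838 CPM in non-diabetic cells (ratio 0.793, 0.747 to 0.840). So 2 of the 10 members passed 1.5-fold upward and 0 downward, with H2-DMb2 among the 2 and its split of reads from H2-DMb1 uncertain. Among 8209 genes measured in these cells, 10.9% were that much higher and 15.9% that much lower. The median log2 ratio was 0.17 over the members and -0.04 over all these genes.

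**Figure D1:**
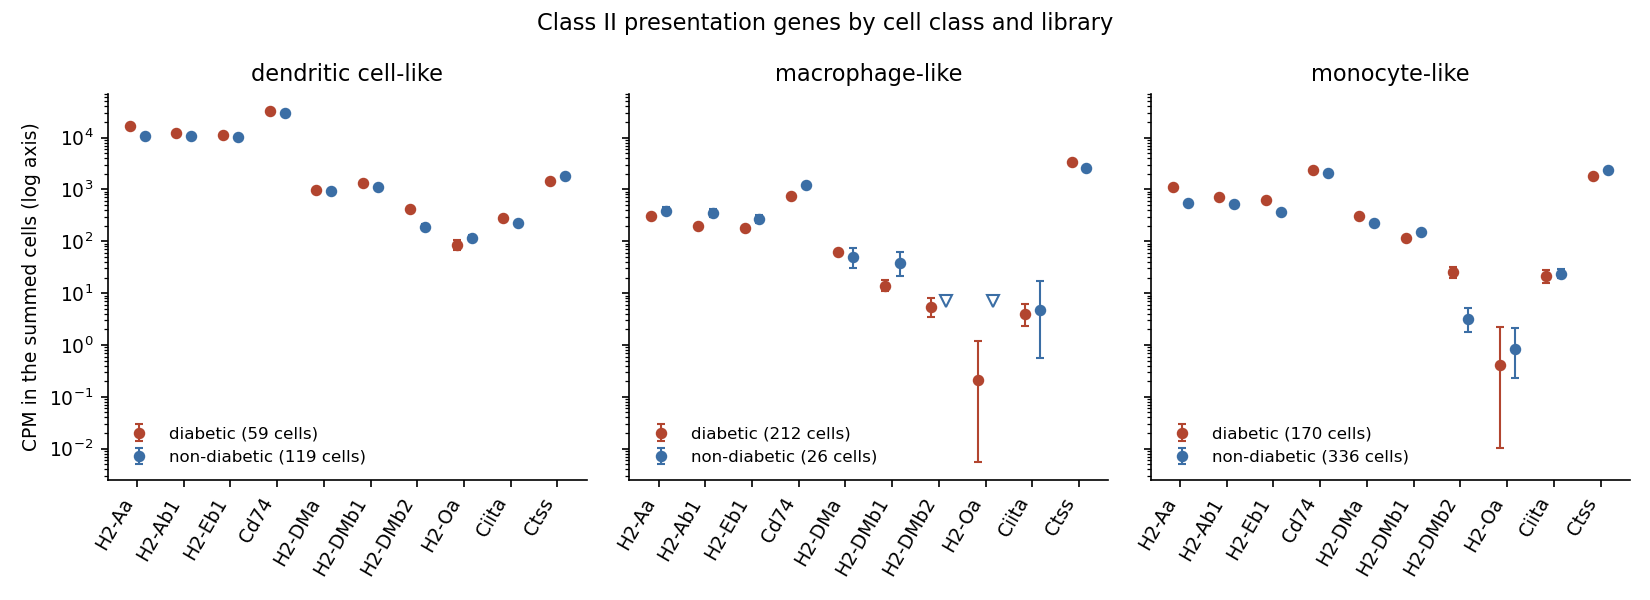
Level of each member in dendritic cell-like, macrophage-like and monocyte-like cells of the diabetic (red) and non-diabetic (blue) library, in CPM on a log axis, with 95% counting intervals; open triangles mark genes with no UMI, drawn at 3 counts. H2-DMb2 at 424 CPM in diabetic and 193 CPM in non-diabetic dendritic cell-like cells is the widest gap between libraries in the left panel.

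Within each library, dendritic cell-like cells exceeded the monocyte/macrophage set in every member but Ctss. The class II sum was 9.91 times (9.83 to 9.99) the level of the monocyte/macrophage set in the diabetic library and 15.1 times (14.9 to 15.2) in the non-diabetic library. H2-Oa was the most restricted member, at 225 times the set in diabetic cells (120 to 467) and 252 times in non-diabetic cells (114 to 692). Only 11 H2-Oa UMIs were counted in the 1672 diabetic set cells and 6 in the 963 non-diabetic set cells. Ciita was 10.95 times the set in the diabetic library and 13.7 times in the non-diabetic library. H2-DMa showed the smallest step of the 9, at 4.33 times the set in the diabetic and 5.69 times in the non-diabetic library. H2-DMb2 was 14.1 times the set in the diabetic and 49.6 times (37.0 to 67.9) in the non-diabetic library. Ctss stood at 0.737 times the set in the diabetic and 0.905 times in the non-diabetic library, so it was no higher in the dendritic cell-like cells. Of all genes measured in these contrasts, 19.4% were at least 1.5 times higher in dendritic cell-like cells of the diabetic library and 22.9% in those of the non-diabetic library.

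In the monocyte/macrophage set most of the class II genes were higher in the diabetic library, with both conditions' clusters pooled. H2-Aa stood at 1750 CPM in diabetic and 630 CPM in non-diabetic set cells, a ratio of 2.78 (2.71 to 2.84). H2-Eb1 stood at 993 CPM in diabetic and 498 CPM in non-diabetic set cells (ratio 1.99). H2-Ab1 stood at 1082 CPM in diabetic and 659 CPM in non-diabetic set cells (ratio 1.64). Cd74 stood at 3532 CPM in diabetic and 2304 CPM in non-diabetic set cells, just past the 1.5-fold mark at 1.53. Ciita, at 25.3 CPM in diabetic and 16.7 CPM in non-diabetic set cells, was likewise just past it at 1.51 (1.30 to 1.77). H2-DMb2 differed most, with 875 UMIs (30.1 CPM) in diabetic and 50 UMIs (3.89 CPM) in non-diabetic set cells, a ratio of 7.74 (5.82 to 10.5). The split of reads between H2-DMb2 and H2-DMb1 is uncertain, and H2-DMb1 stood at 130 CPM in diabetic and 127 CPM in non-diabetic set cells.

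The other 3 measured members lay within 1.5-fold in the monocyte/macrophage set. H2-DMa had a ratio of 1.35, H2-DMb1 1.02 and Ctss 0.973, with Ctss at 1977 CPM in diabetic and 2031 CPM in non-diabetic set cells. In all, 6 of the 9 members with at least 20 UMIs passed 1.5-fold upward and 0 downward, where 20.7% of 12120 genes were higher and 12.2% lower. The median log2 ratio was 0.62 over the members and 0.15 over all these genes. The class II sum stood at 7357 CPM in diabetic and 4090 CPM in non-diabetic set cells, 1.80 times (1.78 to 1.82), a log2 ratio of 0.85. This ratio rested in large part on the Gpr34-led cluster, which held 293 diabetic and 17 non-diabetic cells: without it the log2 ratio was 0.29 and 2 members were higher. Without the Inhba-led cluster, with 3 diabetic and 213 non-diabetic cells, the log2 ratio was 0.62 and 3 members were higher. Without the Fbxo32-led cluster, with 4 diabetic and 249 non-diabetic cells, it was 0.72 and 3 members were higher. Ciita turned to a log2 ratio of -0.11 without the Gpr34-led cluster. With edgeR TMM scaling or DESeq2 size factors the log2 ratio of the sum was 0.70 or 0.69, and 3 members were higher under each, as under a stricter cell filter.

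**Figure D2:**
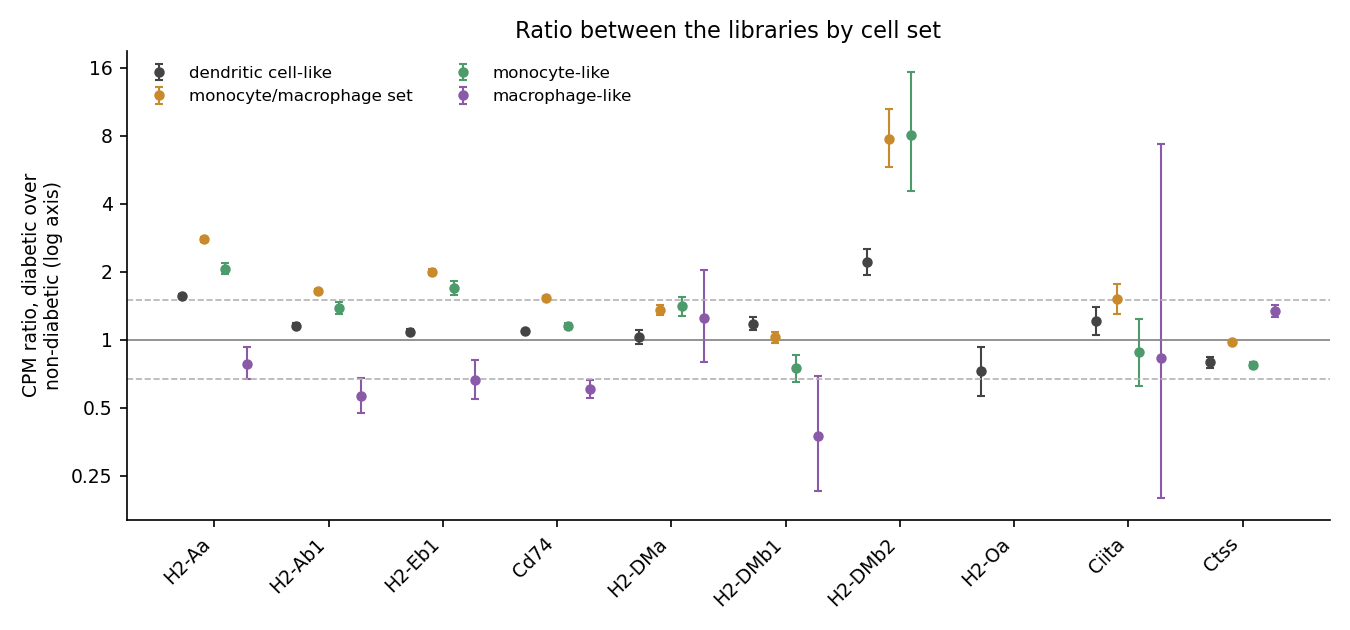
Ratio of CPM, diabetic over non-diabetic, for each member in 4 cell sets (log axis), with 95% counting intervals; the solid line marks equal levels and the dashed lines 1.5-fold either way. H2-DMb2 stands highest in the 3 sets where it is drawn, at 2.20 in dendritic cell-like cells and 7.74 in the monocyte/macrophage set, while Ctss lies between 0.773 and 1.34. Genes with under 20 UMIs or with none in 1 library are left out.

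Between single cells, class II in the monocyte/macrophage set was carried by a minority. The median cell had 272 CPM of class II in the diabetic library and 282 CPM in the non-diabetic library. At 10000 CPM or more stood 381 diabetic cells (22.8%, 20.8 to 24.9%) and 96 non-diabetic cells (9.97%, 8.15 to 12.04%). Those cells held 89.7% of the class II UMIs of the diabetic set and 79.4% of those of the non-diabetic set. The mark cuts a range and not a cell type: 79 diabetic and 20 non-diabetic cells lay within 20% of it. Of 16 neutrophil-like cells 0 reached it, which allows up to 20.6% (exact interval), and of 39 non-diabetic low-depth cells 2 reached it (5.13%, 0.627 to 17.3%). Dendritic cell-like cells had medians of 74892 CPM in diabetic and 64042 CPM in non-diabetic cells. Of these, 2 diabetic and 0 non-diabetic dendritic cell-like cells had no class II UMI at all.

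After thinning each cell to 2000 UMIs, at least 2 class II UMIs were found in 41.6% of diabetic (39.2 to 44.0%) and 34.6% of non-diabetic (31.5 to 37.7%) set cells. Without thinning the shares were 69.1% in the diabetic and 70.5% in the non-diabetic set, at median depths of 16304.5 and 13763 UMIs. In 305 thinned cells of the U90926-led cluster the share was 6.23%, at a median depth of 19214 UMIs before thinning, and in 14 neutrophil-like cells it was 5 of 14 (35.7%, 12.8 to 64.9%), at a median depth of 4820.5 UMIs. The neutrophil-like interval covers the shares of both libraries, so 14 cells do not settle the background level, and no expression and no difference is read from the thinned shares.

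**Figure D3:**
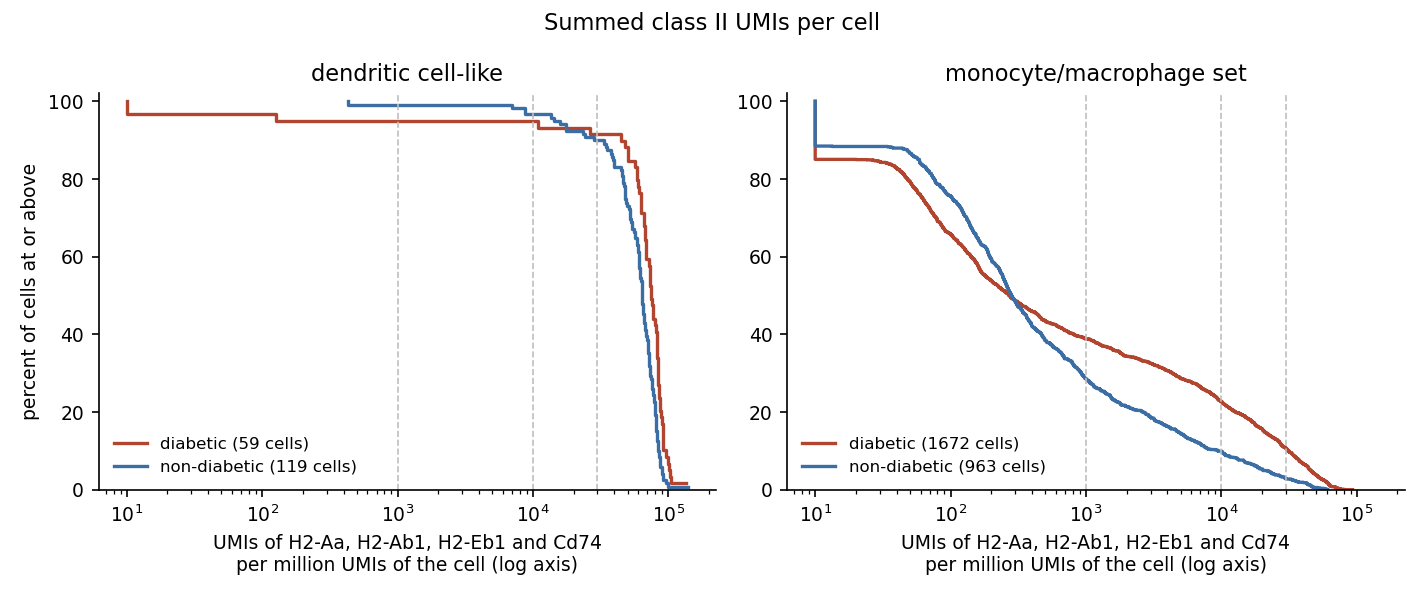
Percent of cells at or above each class II sum in CPM of the cell (log axis; cells with none are drawn at 10), for dendritic cell-like cells and the monocyte/macrophage set of the diabetic (red) and non-diabetic (blue) library. In the right panel the curves cross near the medians of 272 and 282 CPM and then part, with 22.8% of diabetic and 9.97% of non-diabetic cells at 10000 or more.

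The cells of the set at 10000 CPM or more held less of the dendritic cell marker list than the dendritic cell-like cluster did, and more than the set as a whole. Klrd1 and Zbtb46 were at 0 in diabetic cells of this level, and stood at 8.39 CPM and 1.29 CPM in non-diabetic cells. Cd209a stood at 4.06 CPM in diabetic and 82.6 CPM in non-diabetic cells. Clec10a stood at 80.8 CPM in diabetic and 56.1 CPM in non-diabetic cells of this level, and over the whole set at 48.8 CPM in diabetic and 21.4 CPM in non-diabetic cells. In diabetic cells of this level Itgax stood at 12.5 CPM, Kmo at 8.11, Dpp4 at 5.24, Ccr7 at 4.90 and Flt3 at 3.89. These were lower over the whole diabetic set, at 7.05, 2.68, 1.31, 1.41 and 1.72 CPM. Zbtb46 and Clec9a went the other way, at 0 against 0.241 and 0.138 CPM in the set. Itgax in non-diabetic cells stood at 14.0 CPM over the whole set and 61.9 CPM at this level. All 14 dendritic cell markers together summed to 301 CPM in diabetic cells (3 of them at 0) and to 546 CPM in non-diabetic cells, with 0 at 0. In the dendritic cell-like cluster that sum was 2567 CPM in diabetic and 3608 CPM in non-diabetic cells, and in the whole set 225 CPM in diabetic and 333 CPM in non-diabetic cells. Napsa was the largest single part of the sums at 10000 CPM or more, at 162 CPM in diabetic and 263 CPM in non-diabetic cells. It differed little from the whole set, at 151 CPM in diabetic and 264 CPM in non-diabetic cells. The part of dendritic cells in these class II levels was not tested. B cells also carry class II, and their markers Ms4a1 and Igkc were at 0 in both libraries. The 6 B cell markers of the list summed to 115 CPM in diabetic and 95.5 CPM in non-diabetic cells of this level, almost all Ighm and Cd79b. In the whole set the B cell sum was lower, at 46.6 CPM in diabetic and 50.1 CPM in non-diabetic cells. In the Gpr34-led cluster it was 157 CPM in diabetic and 209 CPM in non-diabetic cells. The part of B cells in these class II levels was not tested.

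By cluster, the class II sum spanned a wide range. After the dendritic cell-like cluster came the Gpr34-led cluster, at 21042 CPM over 293 diabetic cells, against 6423 CPM over only 17 non-diabetic cells. Its leading genes include Cd79b, Fcrls, Cx3cr1 and Ighm, and it held 2 of 6 B cell markers and 5 of 12 macrophage markers. The Hspa1b-led cluster followed at 15307 CPM over 157 diabetic cells, against 13409 CPM over 14 non-diabetic cells. In the interferon-marked Ifit2-led cluster the sum was 14666 CPM in 37 diabetic and 4662 CPM in 197 non-diabetic cells, a ratio of 3.15. The Nrg1-led cluster stood at 10119 CPM in the diabetic library. The Fabp4-led cluster went the other way, at 8335 CPM in 45 diabetic and 11667 CPM in 93 non-diabetic cells, a ratio of 0.714. The lowest level was in the U90926-led cluster, whose second leading gene is the stefin Stfa3, at 376 CPM in 309 diabetic cells.

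The clusters described here with at least 30 cells in both libraries therefore did not share a direction. In the Ifit2-led cluster 8 of 9 measured members were at least 1.5 times higher in the diabetic library, against 17.4% of all genes there, with H2-Aa at 4.70 and H2-Eb1 at 4.01 times. These ratios rested on few cells. At 10000 CPM or more, 14 of its 37 diabetic cells held 89.0% of their class II UMIs, and 25 of its 197 non-diabetic cells held 76.2%. In the Fabp4-led cluster 1 was higher, H2-DMb2 at 1.64 times with an interval that includes no change (0.868 to 3.12), and 4 were lower, H2-Ab1, H2-DMa, H2-DMb1 and Ciita, against 20.9% higher and 16.5% lower among all genes. Ciita stood at 0.219 times (0.0761 to 0.519) there, from 6 diabetic and 41 non-diabetic UMIs. Over the few non-diabetic cells of the Gpr34-led cluster, 7 of 9 members were higher and 0 lower, against 11% and 31.3% of all genes. In the Hspa1b-led cluster 2 of 9 were higher, H2-Aa at 1.77 times and H2-DMb2 at least 2.73-fold (122 UMIs against 0), and 0 lower, against 12.3% and 26.9% of all genes.

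**Figure D4:**
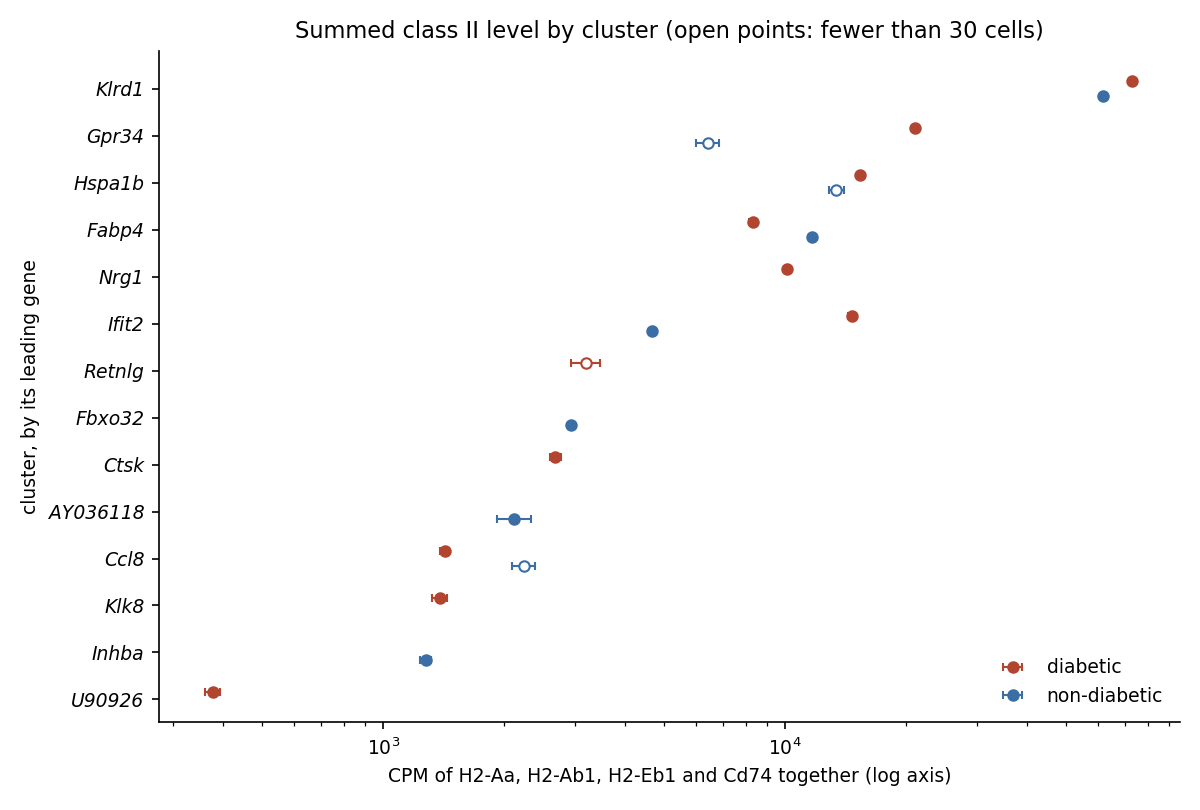
Class II sum in CPM (log axis) by cluster, named by its leading gene, in the diabetic (red) and non-diabetic (blue) library, with 95% counting intervals; units under 10 cells and 1 monocyte-like cluster are not drawn. The Klrd1-led dendritic cell-like cluster is highest, at 72915 CPM in diabetic and 61606 CPM in non-diabetic cells, and the U90926-led cluster lowest, at 376 CPM.

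In monocyte-like cells, H2-Aa, H2-Eb1 and H2-DMb2 were at least 1.5 times higher in the diabetic library and no member was that much lower. H2-Aa stood at 1109 CPM in diabetic and 537 CPM in non-diabetic cells (ratio 2.07, 1.96 to 2.18). H2-Eb1 stood at 636 CPM in diabetic and 375 CPM in non-diabetic cells (ratio 1.70). H2-DMb2 rested on 63 UMIs in diabetic and 15 UMIs in non-diabetic cells (ratio 8.10, 4.56 to 15.3). Among all 9266 genes measured there, 9.97% were that much higher and 14.4% lower. The Ifit2-led cluster held 37 of the 170 diabetic and 197 of the 336 non-diabetic monocyte-like cells, so different clusters held most of the class in each library. The class II sum ratio was 1.38, and the median cell went the other way, at 104 CPM in diabetic and 282 CPM in non-diabetic monocyte-like cells. These ratios rested on few cells. At 10000 CPM or more, 16 diabetic cells held 81.2% of the class II UMIs of the class, and 36 non-diabetic cells held 76.6%. With clustering at resolution 2, H2-Eb1 turned to a log2 ratio of -0.17 and 1 member was higher and 3 lower.

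Macrophage-like cells, which were the Ccl8-led cluster alone, were poor in class II in both libraries. The class II sum was 1420 CPM in 212 diabetic and 2236 CPM in 26 non-diabetic cells, a ratio of 0.635 (0.594 to 0.681). H2-Ab1 (0.564), H2-Eb1 (0.665), Cd74 (0.603) and H2-DMb1 (0.373) passed 1.5-fold downward, 4 of 9 measured members, against 23.1% of 9199 genes. None was that much higher, against 12.5%. H2-DMb2 had 25 UMIs in diabetic and 0 in non-diabetic cells, where 3 counts would be 7.04 CPM, above the diabetic 5.39 CPM, so its direction was not detectable at this depth. The direction of the class II sum did not hold: its log2 ratio was -0.65, but 0.86 with doublets kept, 1.21 at resolution 0.5 and 0.85 at resolution 2. The macrophage-like class then held 343, 668 and 262 diabetic cells and 38, 51 and 21 non-diabetic cells. Ctss, by contrast, was well expressed, at 3427 CPM in diabetic and 2557 CPM in non-diabetic macrophage-like cells. Macrophage markers were not confined to this cluster. The unnamed Gpr34-led cluster held 5 of 12, and also 2 of 6 B cell markers. The class II sum of that cluster was 21042 CPM in diabetic and 6423 CPM in non-diabetic cells. In diabetic set cells the macrophage markers had a median sum of 4214 CPM under 1000 CPM of class II and 11338 CPM at 30000 or more. In non-diabetic set cells these medians were 3364 and 6116 CPM.

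Set against monocyte-like cells of the same library, macrophage-like cells of the Ccl8-led cluster had a lower class II sum. This contrast was not repeated with other cell filters or clusterings, under which the macrophage-like class changed. In the diabetic library the class II sum was 0.292 times the monocyte-like level and 8 of 9 measured members were at least 1.5 times lower, Ciita at 0.185 times, against 13.9% of all genes. Ctss was the 1 member that was higher, at 1.86 times, against 29% of all genes. In the non-diabetic library the sum was 0.636 times the monocyte-like level and 4 of 8 measured members were lower, Cd74, H2-DMa, H2-DMb1 and Ciita, against 15.3% of all genes, and 0 were higher, against 33.9%.

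Across the ranges of class II level in set cells, Ciita and the H2-DM genes climbed with the class II sum and Ctss did not. In diabetic cells Ciita stood at 2.39 CPM under 1000 CPM, 25.6 from 1000, 67.1 from 10000 and 132 from 30000 upward. In non-diabetic cells Ciita stood at 2.34, 22.9, 81.2 and 107 CPM over the same ranges. At a given class II level the libraries therefore had overlapping Ciita intervals. H2-DMb1 under 1000 CPM was 3.88 CPM (3.04 to 4.88) in diabetic and 32.4 CPM (28.8 to 36.3) in non-diabetic cells, whereas at 30000 or more it was 848 CPM in diabetic and 961 CPM in non-diabetic cells. H2-DMb2 at 30000 or more was 184 CPM (168 to 200.04) in diabetic and 36.2 CPM (22.1 to 55.9) in non-diabetic cells. Ctss stayed between 1898 and 2202 CPM in diabetic and between 1869 and 2443 CPM in non-diabetic cells.

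**Figure D5:**
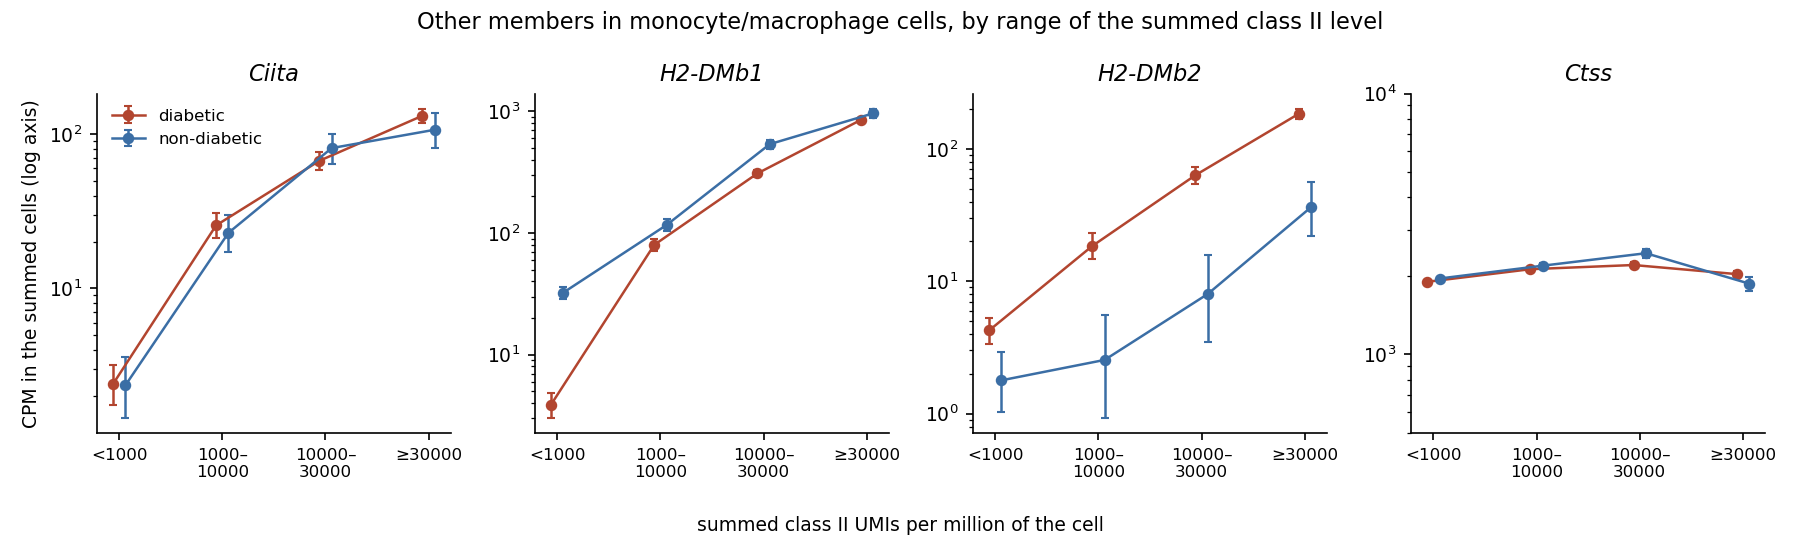
Level of Ciita, H2-DMb1, H2-DMb2 and Ctss in CPM (log axes, scaled per panel) in set cells grouped by their class II sum in CPM, for the diabetic (red) and non-diabetic (blue) library, with 95% counting intervals. Ciita climbs alike in both, H2-DMb2 is higher in diabetic cells in every range, and H2-DMb1 in the lowest range is 3.88 CPM in diabetic and 32.4 CPM in non-diabetic cells.

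The proportions between members differed between the libraries. H2-Aa per UMI of H2-Ab1 was 1.36 (1.33 to 1.39) in diabetic and 1.01 (0.990 to 1.03) in non-diabetic dendritic cell-like cells. Over clusters with at least 30 cells it ranged from 1.14 to 1.72 in 11 diabetic clusters and from 0.321 to 1.07 in 7 non-diabetic clusters, with no overlap. H2-DMb2 per UMI of H2-DMb1 ranged from 0.183 to 0.938 in 11 diabetic clusters and from 0.0190 to 0.171 in 6 non-diabetic clusters, again apart. H2-Eb1 per H2-Ab1 overlapped, at 0.486 to 0.995 in diabetic and 0.580 to 0.974 in non-diabetic clusters, as did Cd74 per H2-Ab1, at 2.58 to 5.39 in diabetic and 2.74 to 4.83 in non-diabetic clusters. Outside class II, H2-D1 per H2-K1 ranged from 2.41 to 3.83 in diabetic and from 1.36 to 2.63 in non-diabetic clusters, which overlap. These pairs were chosen after their values were seen, and clusters of a library share its mice. Strain-specific alleles of these genes, and how reads from them map, cannot be told apart from diabetes here.

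Other genes of the class II pathway were read from lists chosen with earlier results known. In dendritic cell-like cells, H2-Ob, the beta chain of H2-O, stood at 28.7 CPM in diabetic and 44.6 CPM in non-diabetic cells (ratio 0.644, 0.414 to 0.974). H2-Eb2 had 0 UMIs in diabetic and 48 UMIs in non-diabetic dendritic cell-like cells, at least 7.17-fold lower against a floor of 3 counts. Both genes were thus at least 1.5 times lower. H2-Ea and H2-Ea-ps were on the list too, but had no uniquely named entry among the features, so no level could be read. Of 14 genes for transcription factors and interferon gamma receptor chains acting on class II, 1 was higher and 3 lower, where 10.9% of all genes were higher and 15.9% lower in these cells. Their median log2 ratio was -0.06, with Spi1, which encodes PU.1, at 598 CPM in diabetic and 551 CPM in non-diabetic cells. Irf8 was at 88.0 CPM in diabetic and 97.7 CPM in non-diabetic cells, Ifngr1 at 441 CPM in diabetic and 537 CPM in non-diabetic cells, and Ifngr2 at 113 CPM in diabetic and 106 CPM in non-diabetic cells.

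Of 9 measured endosomal processing genes, 1 was higher and 1 lower in diabetic dendritic cell-like cells, near the 10.9% and 15.9% of all genes. The same shares stand beside the other lists here. Ctsl, encoding cathepsin L, was higher at 129 CPM in diabetic and 85.7 CPM in non-diabetic cells, and Cst3, encoding the protease inhibitor cystatin C, lower at 1803 CPM in diabetic and 3086 CPM in non-diabetic cells. Ctsb had a ratio of 0.933 and Ctsd 0.992. Of 6 costimulation genes, Cd274 was higher at a ratio of 1.70 (1.30 to 2.23) and Cd80 lower at 0.621 (0.460 to 0.829), while Cd86 stood at 1.29 and Cd40 at 1.18. Of 11 MHC class I presentation genes, 1 was higher and 2 lower. The higher one, H2-D1, stood at 3658 CPM in diabetic and 2051 CPM in non-diabetic cells, while B2m (1.03), H2-K1 (0.981) and Psmb8 (0.845) were within 1.5-fold.

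In the monocyte/macrophage set the same lists gave 0 of 14 factor and receptor genes higher and 2 lower, and 3 of 9 endosomal genes higher and 0 lower, where 20.7% of all genes were higher and 12.2% lower. Of 6 costimulation genes 0 were higher and 3 lower, with Cd80 at 0.373 times, and of 11 class I genes 1 was higher, H2-D1 at 1.68 times, and 2 were lower. Their medians were -0.18 for factors and receptors, 0.06 for endosomal genes, -0.80 for costimulation and -0.35 for class I, beside 0.62 for the class II members.

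Over 18 units of cluster and library with at least 30 cells, the level of each member was set against the class II sum as a description, on log2(CPM + 1). Units share libraries and cells, and H2-Aa, H2-Ab1, H2-Eb1 and Cd74 are part of the sum. Pearson's r was 0.95 for H2-DMb1, 0.89 for Ciita, 0.87 for H2-DMb2, 0.87 for H2-DMa and 0.71 for H2-Oa, but 0.24 for Ctss. Among the 4721 other genes ranked, the 8 most alike were Olfm1 (0.91), Prcp (0.89), Tmem176a (0.86), Clec4b1 (0.85), Elmo1 (0.84), Pip4k2a (0.84), Il2rg (0.84) and Plekho1 (0.83). Olfm1 ranged from 24.4 to 451 CPM, Prcp from 43.8 to 223 CPM and Tmem176a from 2.39 to 545 CPM, each highest in diabetic dendritic cell-like cells. Spi1 stood at 0.45.

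Over all kept cells, of which dendritic cell-like cells were 3.37% in the diabetic and 10.6% in the non-diabetic library, the class II sum was lower in the diabetic library. The ratio of the class II sum over all kept cells was 0.751, with 0 members at least 1.5 times higher and 2 lower, H2-DMb1 at 0.614 and H2-Oa at 0.181 times, against 18.7% higher and 12.8% lower among all genes. H2-Aa was level over all cells, at a ratio of 1.04.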

How the data were processed

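Single-cell RNA was measured with 10x droplets in 1 diabetic and 1 non-diabetic library. The deposited values are raw UMI counts per gene and barcode, written by software version 3.0.2 per the file headers. The submitters' processing notes name Cell Ranger and mm10. The annotation release is not given in the sources used here. Barcodes were kept at 500 or more genes with under 10% of UMIs mitochondrial, and doublets called by Scrublet were removed, 4 diabetic and 2 non-diabetic.

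Cells were clustered with scanpy 1.11.5 and leidenalg 0.10.2 (2000 variable genes, 30 components, 15 neighbours, resolution 1), leaving out class II genes. Clusters were named from marker lists, by a scoring rule set after the data were seen. Counts were summed per class and library, with exact Poisson intervals for levels, conditional exact binomial intervals for ratios and Clopper-Pearson intervals for shares (scipy 1.17.1). Fold calls used genes with at least 20 UMIs over both groups compared and a prior count of 0.5, with a floor of 3 counts where a sum was 0. Scaling alternatives used edgeR 4.0.16 and DESeq2 1.42.0, for scaling only, in R 4.3.3. Transcripts were compared with blastn 2.17.0. The ratio and interval calculations were run on simulated Poisson sums with known folds. These sums follow the model that the intervals assume and leave out variation between cells. Interval width follows depth, 31730014 diabetic and 17559986 non-diabetic UMIs.

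Members and gene lists were chosen with earlier results of these data known. All members are named, with up to 4 genes of each other list at the highest mean CPM and every measured class II locus gene. Genes named beyond these were chosen after their values were seen. Results for 1 cluster and 1 marker are not reported here.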

Additional observations from a re-analysis of the deposited data

Results flagged for a closer look

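The log2 ratio of H2-Eb1, diabetic over non-diabetic, was 0.7621 in monocyte-like cells and -0.5941 in macrophage-like cells, but neither sign held under every alternative. In macrophage-like cells it was 0.029 with a looser cell filter, 0.94 with doublets kept, 1.27 at resolution 0.5 and 0.74 at resolution 2, and in monocyte-like cells -0.17 at resolution 2. With 1 library per condition this difference was not tested, and the macrophage-like value rests on 26 non-diabetic cells.

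Class II UMIs were also present in barcodes that failed the cell filter. The class II sum stood at 4736.8 CPM in 459 diabetic barcodes and 4387.26 CPM in 903 non-diabetic barcodes, whose median depths were 2239 UMIs in the diabetic and 2056 UMIs in the non-diabetic library. The part of free RNA in these values was not tested.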

How the results depend on the processing

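Values here are log2 ratios of the class II sum, diabetic over non-diabetic, unless a count of members or a share is named. In dendritic cell-like cells (0.24 as reported) the ratio was 0.20 with a stricter cell filter, 0.28 with class II genes used in clustering, 0.30 at resolution 2, 0.28 with a marker gate, 0.22 with each cell counted equally, 0.30 with TMM scaling, 0.30 with DESeq2 size factors and 0.29 without cells under 1000 CPM. Under the stricter filter 1 member was higher.

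In the monocyte/macrophage set (0.85) it was 0.89 with a looser filter, 0.64 with a stricter one, 0.93 with class II genes in clustering, 0.91 with the marker gate, 1.28 with each cell counted equally, 0.70 with TMM, 0.69 with DESeq2 and 0.91 without shared barcodes. Leaving out 1 cluster gave 0.73 (Nrg1), 0.29 (Gpr34), 1.16 (U90926), 0.72 (Fbxo32), 0.62 (Inhba), 0.74 (Hspa1b), 0.91 (Klk8) and 0.97 (Ctsk). Higher members, 6 as reported, numbered 3 with the stricter filter, TMM, DESeq2, or without the Fbxo32-led or Inhba-led cluster, and 2 without the Gpr34-led cluster. A lower member, 1, appeared with the marker gate and without the Gpr34-led cluster. Ciita was -0.11 without the Gpr34-led cluster.

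In monocyte-like cells (0.47) the sum was 0.32 with the looser filter, 0.26 with the stricter one, 0.54 with doublets kept, -0.079 with class II genes in clustering, 0.26 at resolution 0.5, -0.40 at resolution 2, 0.72 with the marker gate and 0.32 with each cell counted equally. Higher members, 3 as reported, numbered 1 with class II genes in clustering and 1 at resolution 2. Lower members numbered 1 with class II genes in clustering, 3 at resolution 2, 1 with each cell counted equally and 1 with no count filter. H2-Eb1 was -0.17 at resolution 2.

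In macrophage-like cells (-0.65) the sum was -0.20 with the looser filter, -0.18 with the stricter one, 0.86 with doublets kept, 1.21 at resolution 0.5, 0.85 at resolution 2, -0.12 with the marker gate, -0.27 with each cell counted equally, -0.93 without cells with 20 stromal UMIs and -0.93 without shared barcodes. H2-Eb1 turned to 0.029 with the looser filter. With doublets kept, at resolution 0.5 and at resolution 2, H2-Eb1 was 0.94, 1.27 and 0.74, H2-Ab1 0.80, 1.07 and 0.84, Cd74 0.67, 0.98 and 0.68, and H2-DMb1 0.99, 0.90 and 0.53. Under these 3 settings 7, 7 and 5 members were higher and 0, 0 and 1 lower. Higher members numbered 1 with the looser filter, the stricter filter, class II genes in clustering and the marker gate. Lower members numbered 1 with the looser filter, 2 with the stricter one, 1 with the marker gate and 1 with each cell counted equally.

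Dendritic cell-like over monocyte/macrophage cells, the diabetic log2 ratio (3.31) was 3.41 with the stricter filter, 3.33 with class II genes in clustering, 3.37 at resolution 2, 3.29 with the marker gate, 3.14 with each cell counted equally, 3.29 without stromal cells and 3.29 without shared barcodes. The non-diabetic one (3.91) was 3.95 with the looser filter, 3.84 with the stricter one, 3.98 with class II genes in clustering, 4.196 with each cell counted equally and 3.96 without shared barcodes.

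The share of diabetic set cells with class II UMIs (41.6%) was 39.1% with the stricter filter, 39.1% without the Nrg1-led, 32.4% without the Gpr34-led, 49.4% without the U90926-led and 37.4% without the Hspa1b-led cluster. The diabetic and non-diabetic shares were 36.5% and 26.0% thinned to 1000 UMIs, 49.6% and 46.9% thinned to 5000 UMIs, 69.1% and 70.5% without thinning, 52.3% and 52.2% at 1 or more UMIs and 33.7% and 20.02% at 5 or more UMIs. The cause of these shifts was not tested. The shared-barcode, stromal-cell and low class II alternatives were chosen after seeing the data.

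No paired analysis was possible because each condition is 1 library. Sums of both libraries under 20 UMIs, such as those of H2-Oa outside dendritic cell-like cells, were too few for a fold between the libraries.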
